A study of Mus musculus with 12 samples.

Results

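Selenoproteins are proteins that carry selenocysteine, a selenium-containing amino acid. The 10 genes described here, Gpx1, Gpx4, Selenop, Txnrd1, Txnrd2, Dio1, Selenow, Selenof, Selenos and Sephs2, were taken by gene symbol from a table of 55903 mouse genes. They were chosen because the code of the compound given to 1 group ends in Se. The labels do not say what these letters stand for. Each symbol matched 1 gene. Mouse liver RNA was sequenced in 12 libraries, 4 in each of 3 groups. Livers of the treated group come from animals given KSL0608-Se, a coded compound, with doxo also named in the description. The group called aged/doxo here is an aged control by its titles and is described as doxo, and the labels do not settle which of them applies. The last group is young control liver. The labels state no strain, sex, age in numbers, dose, light exposure or timing. Nothing in the labels maps animals to libraries, so p-values describe the variation among these libraries, which may be technical. The series title concerns light-activated removal of senescent cells, and the comparisons ask whether transcripts of selenoprotein genes differed with treatment or between the aged/doxo and young control livers.

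A selenoprotein mRNA is read in an unusual way. The codon UGA, which ends translation elsewhere, is read as selenocysteine when a stem-loop in the 3′ untranslated region, the SECIS element, recruits the binding protein SBP2 and a dedicated elongation factor. The liver is the main source of circulating selenoprotein P, which carries selenium to other organs. Selenium supply is known in rodents to set the amounts of some selenoprotein mRNAs, since a UGA that is not read as selenocysteine can mark an mRNA for decay. Gpx1 and Selenow are textbook examples of such sensitive transcripts, and Gpx4 and the thioredoxin reductases are known as less sensitive.

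The selenocysteine codons are shown because they define the family and because the place of the codon differs among the genes. Each line gives the coding strand of the annotated transcript on GRCm38, 15 bases on each side where the coding sequence and its stop codon allow, with the first in-frame selenocysteine codon in capitals.
Selenop: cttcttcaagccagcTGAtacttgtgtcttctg
Sephs2: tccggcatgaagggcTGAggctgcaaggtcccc
Gpx1: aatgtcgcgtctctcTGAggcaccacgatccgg
Gpx4: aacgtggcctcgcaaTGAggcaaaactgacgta
Txnrd1: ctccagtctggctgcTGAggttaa
Txnrd2: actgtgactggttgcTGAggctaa
Dio1: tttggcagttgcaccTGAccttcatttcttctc
Selenof: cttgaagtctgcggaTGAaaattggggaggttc
Selenos: ccatcatctggcggcTGAaactaa
Selenow: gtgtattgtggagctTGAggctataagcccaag

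In Txnrd1, Txnrd2 and Selenos the codon is the second to last before the stop, at codon 498 of 499, 526 of 527 and 189 of 190. In Selenow it stands near the start, at codon 13 of 88. Gpx1 has it at codon 47 of 201, Gpx4 at 129 of 253 in the transcript used, Dio1 at 126 of 257, Selenof at 93 of 162 and Sephs2 at 63 of 452. Selenop is the exception in number, with 10 such codons between codons 59 and 377 of 380, while the other 9 genes have 1. The number found equalled the annotated selenocysteines in all 10 transcripts. In 7 genes the first of these codons lies more than 55 bases before the last exon junction, the arrangement known to allow decay. In Txnrd1, Selenos and the single-exon Sephs2 it lies in the last exon.

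By GENCODE annotation of GRCm38, all 10 genes are protein coding. Selenop (ENSMUSG00000064373) lies on chromosome 15 at 3268547 to 3280508 and Sephs2 (ENSMUSG00000049091) on chromosome 7 at 127271879 to 127274055. Gpx1 (ENSMUSG00000063856) lies on chromosome 9 at 108338903 to 108340343 and Gpx4 (ENSMUSG00000075706) on chromosome 10 at 80047166 to 80056439. Txnrd1 (ENSMUSG00000020250) lies on chromosome 10 at 82833951 to 82897712 and Txnrd2 (ENSMUSG00000075704) on chromosome 16 at 18426384 to 18479073. Dio1 (ENSMUSG00000034785) lies on chromosome 4 at 107291465 to 107307169. Selenof (ENSMUSG00000037072) lies on chromosome 3 at 144570304 to 144597680. Selenos (ENSMUSG00000075701) and Selenow (ENSMUSG00000041571) lie on chromosome 7, at 66079649 to 66089405 and at 15917208 to 15922402. Sephs2, Dio1 and Selenow are on the minus strand and the other 7 on the plus strand.

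The libraries held 9568 to 11023 genes at 1 TPM or more, TPM being a transcript level scaled for gene length and to a common total. The defining hepatocyte transcripts were all detected, and the sum of 10 hepatocyte markers was 99130 to 111047 TPM in treated livers, 85188 to 118748 TPM in aged/doxo livers and 84209 to 101954 TPM in young control livers. Aged/doxo library 2 and young control library 1 stood apart from the other libraries, at the end of a first principal component with 54.9% of the variance. The share of mitochondrially encoded transcripts was 27.6% in the first of these and ran from 8.10% to 12.4% elsewhere. They also had the steepest fall of level with gene length, both with a slope of -0.47 log2 units per doubling of length. Aged/doxo library 4 came close, at -0.45, and the least steep was -0.23, in a treated library. Differences of the 10 members and of further named genes are therefore given with the pair that stood apart. In most cases they are also given without it. In such bulk tissue, fewer cells of a type and less RNA per cell cannot be told apart.

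All 10 transcripts were detected in every library. Together they made up 0.509%, 0.547%, 0.568% and 0.634% of all TPM in treated libraries 1 to 4, 0.655%, 0.164%, 0.577% and 0.497% in aged/doxo libraries 1 to 4, and 0.341%, 0.578%, 0.509% and 0.512% in young control libraries 1 to 4. The libraries of the groups overlapped, with aged/doxo library 2 and young control library 1 lowest. Gpx1 and Selenop supplied most of this, 77.4% of the members' sum in treated livers, 73.6% in aged/doxo livers and 77.0% in young control livers. In aged/doxo library 2 these genes supplied 56.8%. Gpx1 had the highest level of the 10 in all 12 libraries, and Selenop came next in 11 of them, falling behind Gpx4 in aged/doxo library 2.

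In treated livers the order by mean TPM was Gpx1, Selenop, Sephs2, Gpx4, Selenof, Selenow, Dio1, Selenos, Txnrd1 and Txnrd2. Neighbours in this order did not overlap between libraries, except Sephs2 with Gpx4 and Dio1 with Selenos. In aged/doxo and young control livers, Gpx4 had a higher mean than Sephs2 and Selenow a higher mean than Selenof. The ranges of both pairs overlapped in these groups. In young control livers the ranges of Dio1 and Selenos, of Selenos and Txnrd1 and of Txnrd1 and Txnrd2 overlapped. Compared within each library, Dio1 exceeded Selenos and Selenos exceeded Txnrd1 in 4 of 4 young control libraries, and Txnrd1 exceeded Txnrd2 in 3. The ranges of all neighbours overlapped in the aged/doxo group, which includes library 2. Within each of its 4 libraries Gpx1 exceeded Selenop, Sephs2 exceeded Selenow and Selenof exceeded Dio1, while the order of the other neighbours varied.

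**Figure D1:**
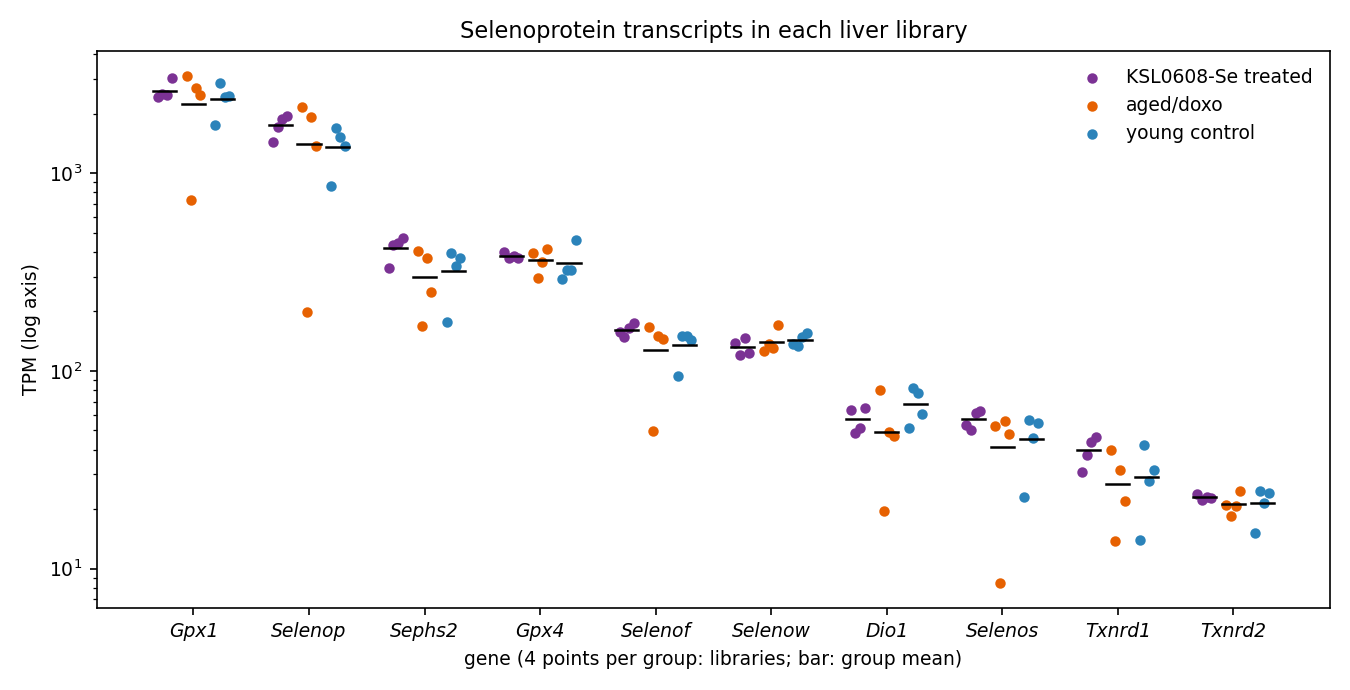
TPM (log axis) of the 10 selenoprotein genes in each library, ordered by mean, with treated, aged/doxo and young control libraries side by side and a bar at each group mean. In all genes but Selenow the lowest aged/doxo point is library 2, and the groups overlap for every gene.

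Selenop encodes selenoprotein P, the plasma carrier of selenium. Its level was 1439, 1721, 1883 and 1949 TPM in treated libraries 1 to 4, 2160.1, 199.8, 1919.8 and 1375 TPM in aged/doxo libraries 1 to 4, and 865, 1697, 1528 and 1370.2 TPM in young control libraries 1 to 4. Aged/doxo library 2 lay far below every other library, young control library 1 was the next lowest, and the groups overlapped. The means were 1748 ± 227 TPM for treated livers, 1414 ± 873 TPM for aged/doxo livers and 1365 ± 359 TPM for young controls (SD, n = 4 each). By limma on log2(TPM + 1), the treated minus aged/doxo difference was 0.75 with a 95% interval of -0.52 to 2.02 and an adjusted p of 0.446. Without the libraries that stood apart it was -0.041, with an interval of -0.42 to 0.34.

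Sephs2 encodes selenophosphate synthetase 2, which makes the selenium donor for selenocysteine and is itself a selenoprotein. Its level was 333, 432, 443 and 468 TPM in the 4 treated libraries, 404, 169, 371 and 250.3 TPM in aged/doxo libraries and 176, 393, 339.8 and 373 TPM in young control libraries. Treated libraries 2 to 4 exceeded all 8 other libraries, and treated library 1 lay among them. On the log2 scale, treated minus aged/doxo was 0.56, with an interval of -0.12 to 1.23, an unadjusted limma p of 0.0988 and an adjusted p of 0.427. Without the pair of libraries it was 0.31, with an interval of -0.083 to 0.70.

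Gpx1 encodes the cytosolic glutathione peroxidase, which reduces hydrogen peroxide. Its level was 2446, 2511, 2482 and 3051 TPM in treated libraries, 3103, 734, 2685 and 2476 TPM in aged/doxo libraries and 1746, 2875, 2428 and 2453 TPM in young control libraries. Apart from aged/doxo library 2 and young control library 1, all libraries lay between 2428 and 3103 TPM. For Gpx1, treated minus aged/doxo was 0.40, with an interval of -0.39 to 1.203 and a limma adjusted p of 0.491. It was -0.071 without the pair of libraries, with an interval of -0.35 to 0.20.

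Gpx4 encodes the peroxidase that reduces lipid hydroperoxides in membranes and is known as the guard against ferroptosis. Its level was 401, 373, 381 and 373 TPM in treated libraries, 395, 295, 356 and 413 TPM in aged/doxo libraries and 290.3, 325, 326 and 457 TPM in young control libraries. The treated libraries lay within a narrow band inside the range of both other groups. Treated minus aged/doxo was 0.079, with an interval of -0.32 to 0.48 and a limma adjusted p of 0.789, and -0.019 without the pair of libraries (interval -0.30 to 0.26).

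The thioredoxin reductases keep thioredoxin reduced, Txnrd1 in the cytosol and Txnrd2 in mitochondria. Txnrd1 was at 30.7, 37.6, 43.9 and 46.2 TPM in treated libraries, 40.0, 13.7, 31.5 and 21.97 TPM in aged/doxo libraries and 13.99, 42.4, 27.7 and 31.6 TPM in young control libraries. Its treated libraries 3 and 4 were the highest of all 12, and the groups overlapped. For Txnrd1, treated minus aged/doxo was 0.63, with an interval of -0.14 to 1.40, an unadjusted limma p of 0.0990 and an adjusted p of 0.427. Without the pair of libraries it was 0.36, with an interval of -0.14 to 0.86.

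Txnrd2 varied little. It was at 23.9, 22.1, 23.0 and 22.8 TPM in treated libraries, 21.0, 18.45, 20.6 and 24.6 TPM in aged/doxo libraries and 15.1, 24.7, 21.6 and 24.1 TPM in young control libraries. Treated minus aged/doxo was 0.12, with an interval of -0.29 to 0.52 and a limma adjusted p of 0.687, and 0.056 without the pair of libraries (interval -0.16 to 0.27). The coefficient of variation within treated libraries was 3.19%, the smallest of the 10 genes in that group.

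Dio1 encodes the type 1 deiodinase, which converts thyroxine to the active thyroid hormone in liver. It was at 63.8, 48.7, 51.5 and 65.2 TPM in treated libraries, 80.0, 19.5, 49.3 and 46.7 TPM in aged/doxo libraries and 51.5, 81.8, 77.5 and 60.4 TPM in young control libraries. The mean was 57.3 ± 8.41 TPM in treated livers and 48.9 ± 24.8 TPM in aged/doxo livers, both below the 67.8 ± 14.3 TPM of young control livers (SD, n = 4 each), with overlapping libraries. The aged/doxo minus young control difference was -0.60, with an interval of -1.34 to 0.14, an unadjusted limma p of 0.104 and an adjusted p of 1. Without the pair of libraries it was -0.35, with an interval of -0.83 to 0.14. Leaving out 1 library at a time, it ran from -0.89 without aged/doxo library 1 to -0.22 without aged/doxo library 2. Treated minus young control was -0.23 with all libraries (interval -0.97 to 0.51) and -0.35 without the pair (interval -0.80 to 0.10). Of the 10 genes, Dio1 was the one with an unadjusted limma p under 0.05 in aged/doxo minus young control under any alternative. The smallest was 0.00977 with library quality weights (adjusted p of 0.194). That setting called 74 of all 10883 genes in this comparison, against 1 as reported. The treated and aged/doxo means of Dio1 were both below the young control mean, while single libraries overlapped. Both comparisons share the young control libraries.

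Selenof and Selenos belong to the endoplasmic reticulum, Selenof as a thiol-disulfide protein tied to glycoprotein folding and Selenos as a membrane protein of the degradation machinery. Selenof was at 158, 148, 165 and 175 TPM in treated libraries, 166, 49.9, 151 and 145 TPM in aged/doxo libraries and 94.7, 151, 149 and 144 TPM in young control libraries. Selenos was at 53.1, 50.4, 61.4 and 62.9 TPM in treated libraries, 52.8, 8.50, 55.7 and 48.0 TPM in aged/doxo libraries and 23.0, 56.55, 46.0 and 54.4 TPM in young control libraries. Both genes were lowest in aged/doxo library 2 and next lowest in young control library 1. Treated minus aged/doxo was 0.47 for Selenof (interval -0.25 to 1.19, limma adjusted p of 0.429) and 0.74 for Selenos (interval -0.33 to 1.82, limma adjusted p of 0.427). Without the pair of libraries these were 0.068 (interval -0.13 to 0.26) and 0.12 (interval -0.14 to 0.38).

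Selenow encodes a small thioredoxin-fold protein known from muscle. It was at 138, 120.2, 146 and 123 TPM in treated libraries, 125, 137, 130.4 and 169.9 TPM in aged/doxo libraries and 137, 134, 148 and 155 TPM in young control libraries. Neither aged/doxo library 2 nor young control library 1 was out of the range of the others for this gene. Selenow had the lowest coefficient of variation over 12 libraries, 10.3%, followed by Txnrd2 at 12.9% and Gpx4 at 13.6%. The other 7 genes had 24.7% to 35.6%, with the highest for Selenop, against a median of 30.2% over all genes tested. For Selenow, treated minus aged/doxo was -0.088, with an interval of -0.45 to 0.28 and a limma adjusted p of 0.740.

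**Figure D2:**
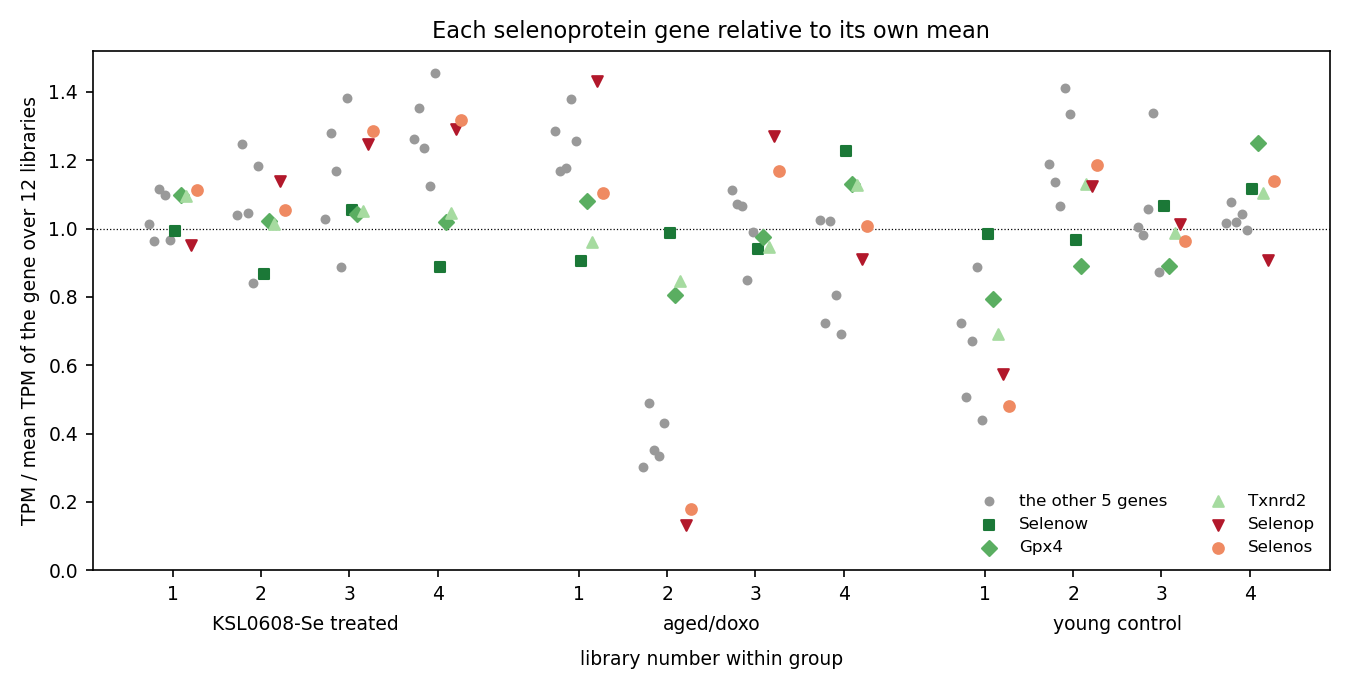
TPM of each gene divided by its own mean over the 12 libraries (linear axis, dotted line at 1), by library number within each group. In aged/doxo library 2 Selenop and Selenos lie lowest, Selenop at 0.132, while Selenow lies at 0.986.

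The 2 libraries that stood apart did so unequally across the family. Relative to the mean of the other aged/doxo libraries, aged/doxo library 2 held 10.99% of the Selenop level, 16.3% of Selenos, 26.6% of Gpx1, 32.4% of Selenof, 33.2% of Dio1, 44.1% of Txnrd1 and 49.5% of Sephs2. It held 76.0% of Gpx4, 83.5% of Txnrd2 and 96.3% of Selenow. The median was 38.6% over the 10 genes and 53.3% over all genes tested. In young control library 1 the corresponding shares ran from 41.2% for Txnrd1 to 93.8% for Selenow, with medians of 64.1% over the 10 genes and 60.8% over all genes. Each of these libraries was the lowest of its group for 9 of 10 genes. Mitochondrial share was far out in aged/doxo library 2 only, with 12.4% in young control library 1 and 11.9% in treated library 2. Length slope was steepest in the libraries that stood apart. It was nearly as steep, at -0.45, in aged/doxo library 4, where the 10 genes made up 0.497% of all TPM. The part of both measures in these values was not tested.

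None of the 10 selenoprotein genes passed the test between treated and aged/doxo livers. With limma, 0 of 10 passed an adjusted p of 0.05, against 0.00919% of all 10883 genes tested, and 0 of 10 had an unadjusted p under 0.05, against 4.77% of all genes. In 0 of 10 did all treated libraries lie above all aged/doxo libraries (2.77% of all genes) or below them (0.358% of all genes). The differences were above 0 for 9 of 10 genes, against 81.0% of all genes, and for 7 of 10 under each of 3 other scalings, where Gpx4 and Txnrd2 were below 0. Their median was 0.44, and that of all genes was 0.30. Without the pair of libraries 5 of 10 differences were above 0, the medians were 0.027 for the 10 genes and 0.13 for all genes, and 0 of 10 passed. With the length slope as covariate 4 of 10 were above 0, and the medians were -0.0050 for the 10 genes and 0.022 for all genes.

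Between treated and young control livers no member passed either. With limma, 0 of 10 genes passed the adjusted threshold, against 0.0276% of all genes, and 0 of 10 had an unadjusted p under 0.05, against 3.4% of all genes. For 0 of 10 did the treated libraries all lie above the young control libraries (3.66% of all genes) or all below (0.358% of all genes). The smallest adjusted p was 0.734, for Txnrd1 and Sephs2, with differences of 0.52 (interval -0.25 to 1.29) and 0.44 (interval -0.23 to 1.12). Of the others, Selenos stood at 0.41, Selenop at 0.39, Selenof at 0.28, Gpx1 at 0.16, Gpx4 at 0.15, Txnrd2 at 0.12, Selenow at -0.12 and Dio1 at -0.23. The values without the pair of libraries were 0.22 for Txnrd1, 0.18 for Sephs2, 0.12 for Selenos, 0.19 for Selenop, 0.12 for Selenof, 0.019 for Gpx1, 0.067 for Gpx4, -0.028 for Txnrd2, -0.14 for Selenow and -0.35 for Dio1. The median was 0.22 over the 10 genes and 0.23 over all genes, and without the pair of libraries it was 0.093 over the 10 genes and 0.091 over all genes. With median-of-ratios scaling 4 of 10 differences were above 0, against 8 of 10 as deposited, where 84.0% of all genes were above 0.

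Aged/doxo and young control livers also gave no call. With limma, 0 of 10 genes passed the adjusted threshold, against 0.00919% of all genes, and 0 of 10 had an unadjusted p under 0.05, against 1.98% of all genes. For 0 of 10 did the aged/doxo libraries all lie above the young control libraries (0.689% of all genes) or all below (0.312% of all genes). The differences were -0.36 for Selenop, -0.33 for Selenos, -0.25 for Gpx1, -0.19 for Selenof, -0.11 for Sephs2, -0.11 for Txnrd1, -0.034 for Selenow, 0.0059 for Txnrd2 and 0.070 for Gpx4, beside the -0.60 of Dio1. They were above 0 for 2 of 10 genes, against 35.2% of all genes. The median was -0.15 over the 10 genes and -0.075 over all genes. Without the pair of libraries it was -0.024 over the 10 genes and -0.040 over all genes. The treated minus aged/doxo and aged/doxo minus young control comparisons share the aged/doxo libraries, both comparisons with young control share its libraries, and both with treated livers share the treated libraries, so their values are not independent.

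**Figure D3:**
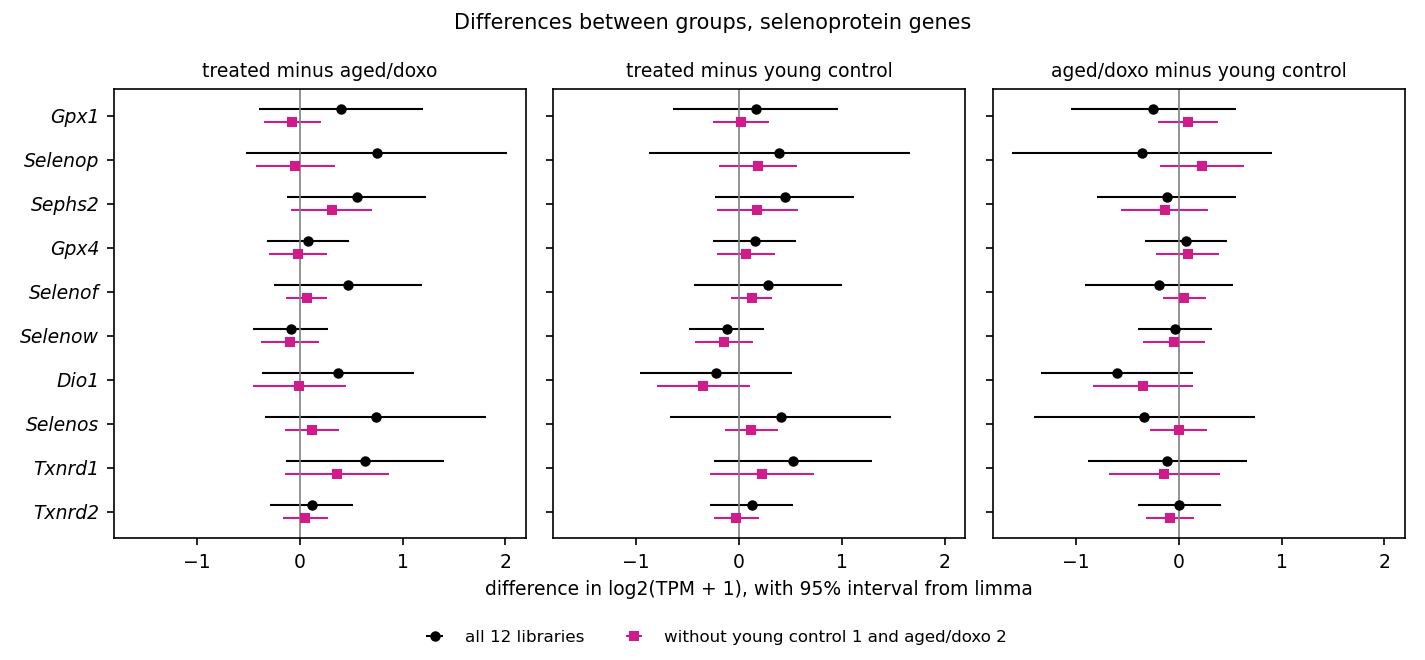
Log2 difference of each selenoprotein gene in the 3 comparisons, with 95% intervals from limma, for all 12 libraries (black circles) and without the pair that stood apart (pink squares). Every interval includes 0, and with all libraries those of Gpx4, Txnrd2 and Selenow are the narrowest.

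The intervals say how large a difference these libraries could have missed. For Selenow the treated minus aged/doxo interval corresponds to a fold on the TPM + 1 scale between 0.732 and 1.21, and for Gpx4 between 0.801 and 1.39. For Selenop it runs from 0.697 to 4.04. Leaving out the pair of libraries shrank the median width of the interval over the 10 genes to 0.56 log2 units, against 1.46 with all libraries.

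Likeness from library to library was described within the family. Among the 7 genes more variable over these libraries, Pearson correlations of log2(TPM + 1) over the 12 libraries were 0.65 to 0.99 for the 21 pairs. They were -0.018 to 0.94 without the pair of libraries that stood apart. The 21 pairs of 1 of these genes with Gpx4, Selenow or Txnrd2 ran from -0.33 to 0.70 over 12 libraries, so the ranges overlapped. Gpx1 and Selenop had a correlation of 0.99 (0.75 without), and Txnrd1 and Sephs2 0.98 (0.94 without). Selenow correlated at -0.33 to 0.28 with the other genes over 12 libraries. Without the pair its correlations ran from -0.75 with Sephs2, -0.73 with Selenop, -0.71 with Txnrd1 and -0.62 with Gpx1 to 0.53 with Txnrd2. These are descriptions, since the genes of a library share its preparation and its TPM total.

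Among all other tested genes with an established symbol, those closest to each member were found by this correlation over 12 libraries. Each value is followed by that without the pair of libraries. Selenos was closest to Calm2 (0.998, and 0.92 without) and Rpl4 (0.99, and 0.80 without), and Selenof to Slc25a5 (0.99, and 0.84 without) and Glod4 (0.99, and 0.68 without). Gpx1 was closest to Ppa1 (0.99, and 0.83 without) and Cox5a (0.98, and 0.71 without), and Selenop to Ndfip1 (0.99, and 0.87 without) and Ak6 (0.99, and 0.77 without). Dio1 was closest to Mad2l1bp (0.96, and 0.86 without) and Tspan33 (0.95, and 0.85 without). Txnrd1 was closest to Fam168a and Ero1l (both 0.99, and 0.98 without the pair of libraries), and Sephs2 to Nubpl (0.99, and 0.98 without) and Smc1a (0.99, and 0.97 without). Selenow was closest to Trmt112 (0.85, and 0.92 without) and Mt1 (0.84 with and without), Gpx4 to Acot1 (0.91, and 0.83 without) and Glrx (0.90, and 0.83 without), and Txnrd2 to Irf1 (0.95, and 0.75 without) and Neil1 (0.94, and 0.69 without).

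Of 14 further mouse selenoprotein genes, 9 had a mean of at least 1 TPM. Msrb1, which reduces methionine sulfoxide, was the most abundant, at 365 ± 26.4 TPM for treated livers, 275 ± 107.0 TPM for aged/doxo livers and 306 ± 88.5 TPM for young controls (SD, n = 4 each). Dio2, Dio3, Gpx2 and Selenon stayed below a mean of 1 TPM and Selenov was listed at 0 in every library. With limma, 0 of 9 passed the adjusted threshold in any comparison. At an unadjusted limma p under 0.05, treated minus aged/doxo gave 1 of 9 genes, against 4.77% of all genes. Selenoi, which makes the phospholipid phosphatidylethanolamine, had the one unadjusted p under 0.05, with a treated minus aged/doxo difference of 0.73 (interval 0.0091 to 1.46, p of 0.0476, limma adjusted p of 0.427). It ranged between 7.66 and 13.2 TPM in the treated libraries and was at 10.2, 3.03, 7.72 and 5.12 TPM in aged/doxo libraries and at 3.63, 10.35, 6.67 and 8.19 TPM in young control libraries. Gpx3, the plasma glutathione peroxidase, was lower in mean in treated than in aged/doxo livers (2.88 and 5.37 TPM), at a difference of -0.61 (interval -1.29 to 0.062). The differences from aged/doxo were 0.52 for Msrb1, 0.55 for Selenoh, 0.53 for Selenoo, 0.52 for Selenot, 0.39 for Txnrd3, -0.32 for Selenok and -0.47 for Selenom. Leaving out the pair of libraries gave 0.16 for Msrb1, 0.075 for Selenoh, 0.26 for Selenoo, 0.18 for Selenot, 0.18 for Txnrd3, -0.19 for Selenok, -0.29 for Selenom, 0.47 for Selenoi and -0.53 for Gpx3.

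Selenok and Selenom, both of the endoplasmic reticulum, ran against the family in the library that stood apart. Selenok was at 119, 81.6, 79.1 and 64.1 TPM in treated libraries, 71.1, 140.3, 88.8 and 138 TPM in aged/doxo libraries and 126, 70.7, 85.6 and 98.2 TPM in young control libraries. Selenom reached 7.95 TPM in aged/doxo library 2, its highest value of all. Of the 19 selenoprotein genes detected, aged/doxo library 2 was the lowest of its group for 15 and the highest for 2, which were these. Young control library 1 was likewise the lowest of its group for 15 of 19 and the highest for 2.

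**Figure D4:**
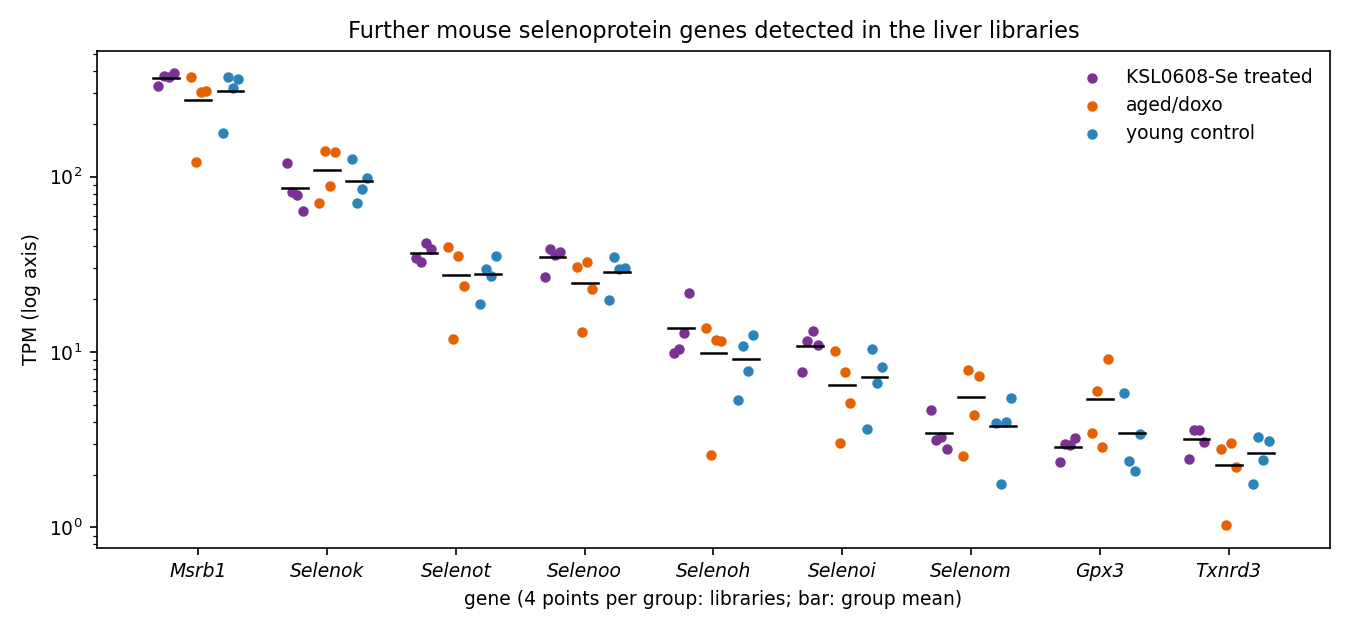
TPM (log axis) of the 9 further selenoprotein genes with a mean of at least 1 TPM, by library, with a bar at each group mean. The groups overlap for every gene, and Selenok and Selenom have their highest aged/doxo value in library 2.

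The machinery that makes and inserts selenocysteine was measured through 9 genes, all tested. With limma, 0 of 9 passed the adjusted threshold in any comparison. Treated minus aged/doxo was above 0 for all 9, with a median of 0.31, beside 81.0% above 0 and a median of 0.30 over all genes. Treated minus young control was also above 0 for all 9, with a median of 0.32, beside 84.0% above 0 and a median of 0.23 over all genes. With median-of-ratios scaling these counts were 5 of 9 and 5 of 9, and without the pair of libraries 6 of 9 and 8 of 9. Sephs1, the paralogue of Sephs2 that carries no selenocysteine, was at 6.35, 9.18, 7.97 and 9.28 TPM in treated libraries, 7.63, 2.18, 5.11 and 4.66 TPM in aged/doxo libraries and 3.54, 7.99, 6.48 and 7.99 TPM in young control libraries. In treated minus aged/doxo, Sephs1 was the 1 of 9 genes with an unadjusted limma p under 0.05, against 4.77% of all genes. Its treated minus aged/doxo difference was 0.72 (interval 0.064 to 1.37, unadjusted limma p of 0.0338, adjusted p of 0.427). The value for Eefsec, the selenocysteine elongation factor, was 0.57 (interval -0.10 to 1.24), for Sepsecs, the final enzyme of selenocysteine synthesis on its tRNA, it was 0.46 (interval -0.091 to 1.01) and for Scly, the lyase that recycles selenium, it was 0.59 (interval -0.22 to 1.39). These treated minus aged/doxo values without the pair were 0.45 for Sephs1, 0.30 for Eefsec, 0.30 for Sepsecs and 0.25 for Scly. Of 3 receptors for selenoprotein P, Lrp1 was tested, with a difference of 0.44 (interval -0.28 to 1.15, and 0.12 without the pair), and Lrp2 and Lrp8 stayed under 1 TPM.

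The transcripts known as sensitive to selenium supply were Gpx1, Selenow and Selenoh. Their treated minus aged/doxo differences were 0.40, -0.088 and 0.55, and their treated minus young control differences were 0.16, -0.12 and 0.53, with 0 of 3 below an unadjusted limma p of 0.05 in any comparison. Treated minus aged/doxo without the pair was -0.071 for Gpx1, -0.098 for Selenow and 0.075 for Selenoh. Selenoh, a nuclear protein, was at 9.88, 10.35, 12.9 and 21.7 TPM in treated libraries, 13.8, 2.59, 11.7 and 11.6 TPM in aged/doxo libraries and 5.31, 10.9, 7.82 and 12.55 TPM in young control libraries. The values of the 3 genes lay on both sides of 0 in both comparisons.

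Of 7 homologues with cysteine in place of selenocysteine, 5 were tested and 0 passed the adjusted threshold in limma in any comparison. Gpx6, which has cysteine at this place in mouse, was at 1.78, 2.86, 3.47 and 1.07 TPM in treated libraries, 0.61, 0.55, 0.99 and 0.88 TPM in aged/doxo libraries and 0.64, 0.70, 0.66 and 1.10 TPM in young control libraries. All treated libraries exceeded all aged/doxo libraries, at low levels, as in 2.77% of all genes. Treated library 4 lay below young control library 4. Gpx6 passed the filter of a mean of at least 1 TPM only through the treated libraries, where it was high. Its separation and its p are therefore not independent of that filter. In limma, treated minus aged/doxo was 0.85 (interval 0.34 to 1.36, unadjusted limma p of 0.0032, adjusted p of 0.427), and it was 0.79 without the pair of libraries. Treated minus young control was 0.84 (unadjusted limma p of 0.0036, adjusted p of 0.734), and 0.80 without the pair. In each comparison this was 1 of 5 genes at an unadjusted p under 0.05, against 4.77% and 3.4% of all genes.

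Among 13 thioredoxin and glutathione partners of these enzymes, 0 passed the adjusted or the unadjusted threshold in limma in any comparison, and the median treated minus aged/doxo difference was 0.27, and 0.0091 without the pair of libraries. Gclc, the catalytic subunit for glutathione synthesis, had the smallest p, with a treated minus aged/doxo difference of 0.47 (interval -0.15 to 1.08), and 0.36 without the pair. Of 10 targets of NRF2, the regulator known to raise Txnrd1, 8 were tested and 0 passed in any comparison. The list shares Gclc, Gclm and Gsr with the previous one. Its median treated minus aged/doxo difference was 0.44, with Srxn1 at 0.55 (interval 0.0018 to 1.09, unadjusted p of 0.0493) and Me1 at 1.18 (interval 0.049 to 2.32, unadjusted p of 0.0421), both with an adjusted p of 0.427. These were 2 of 8 genes at an unadjusted p under 0.05, against 4.77% of all genes. With the pair left out, the median was 0.28, Srxn1 was at 0.37 and Me1 at 0.77. For Nqo1, treated minus young control was 0.63 (unadjusted p of 0.0232, adjusted p of 0.734) and aged/doxo minus young control was 0.59 (unadjusted p of 0.0323, adjusted p of 1). These were 0.53 and 0.74 without the pair of libraries. In each of these comparisons Nqo1 was the 1 of 8 genes at an unadjusted p under 0.05, against 3.4% and 1.98% of all genes.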

How the data were processed

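Mouse liver RNA was sequenced in 12 libraries. The authors deposited 1 table of TPM values per gene and library, scaled for length and to a common total and rounded to 2 decimals, with a gene length in bases. The submitters' processing notes name fastp, HISAT and RSEM without version, role or order. Neither a genome build nor an annotation release nor the use of strand is given in the sources used here. Depth cannot be read from TPM and is unknown, so counting intervals were not made. No 2 libraries were identical.

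The deposited TPM values were analysed as log2(TPM + 1), with 1 as pseudocount, for the 10883 genes whose mean was at least 1 TPM over all libraries. limma 3.58.1 in R 4.3.3 fitted group means to all 12 libraries with an intensity trend in the prior variance, and two-sided p-values were adjusted over all genes tested by Benjamini-Hochberg. The threshold was 0.05, and 95% intervals come from that model. For genes of low level such differences are smaller than the true ones. The fit was also run on simulated data with independent noise for each gene. Those data lack effects shared by a whole library, so they cannot show how the p-values behave in these libraries. Positions, exons and codons come from GENCODE annotation of GRCm38, release M21, matched by gene identifier. Plots were made in Python 3.11.15 (matplotlib 3.10.9).

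The members, the other gene lists, the alternatives and the naming rule were chosen with earlier results of these data known. All members and the other mouse selenoprotein genes are named. From each further list, at most 4 genes of smallest limma p in a comparison are named. For each member, the pair of other genes with an established symbol and the highest Pearson correlation of log2(TPM + 1) is named. Alternatives covered the pseudocount, the filter, the scaling, robust and weighted fits, a block for the replicate number, a length slope as covariate, fits of the compared groups alone, and leaving libraries out.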

Additional observations from a re-analysis of the deposited data

Results flagged for a closer look

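In 3 of 57 sets of 4 libraries, 1 gene in 1 group each, a library lay far from the others relative to the range of its group, by Dixon's criterion at the 95% level. Chance alone flags about 1 in 20 such sets. Gpx1 was highest in treated library 4, at 3051 TPM, with the other treated libraries between 2446 and 2511 TPM. Selenof was lowest in young control library 1, at 94.7 TPM, with the others between 144 and 151 TPM. Selenos was lowest in aged/doxo library 2, at 8.50 TPM, with the others between 48.0 and 55.7 TPM.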

How the results depend on the processing

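The count of called genes was 0 of 10 in each comparison under all 25 alternatives. Over all 10883 genes, library quality weights called 77 in treated minus aged/doxo, 29 in treated minus young control and 74 in aged/doxo minus young control, against 1, 3 and 1 as reported. The smallest adjusted p of any of the 10 genes was 0.133, for Txnrd1 in treated minus aged/doxo with library quality weights. An unadjusted limma p under 0.05 occurred under 5 alternatives, in 12 cases, for Dio1, Sephs2 or Txnrd1. Library quality weights, which called more of all genes, was among these alternatives. The share of all genes at that level is not given for them, so the cases cannot be weighed against it. Of 750 differences under alternatives, 63 had another sign than reported, and none passed the threshold. The cause of the sign changes was not tested. The filter, the replicate block, the robust fit, the compared groups alone and libraries left out of the third group cannot change a difference. The 750 include these settings, so 63 of 750 understates how often signs changed. Median-of-ratios scaling changed the median of all genes to 0.033 in treated minus aged/doxo and to -0.0072 in treated minus young control, against 0.30 and 0.23. The length slope as covariate changed these medians to 0.022 and 0.038.

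In treated minus aged/doxo, values with another sign were Gpx4 -0.25 and Txnrd2 -0.20 with median-of-ratios scaling, Gpx4 -0.11 and Txnrd2 -0.20 with quantile normalization, Gpx4 -0.13 and Txnrd2 -0.083 with the total without the 50 most abundant genes, Gpx1 -0.031 and Selenop -0.060 with quality weights, Gpx1 -0.073, Selenop -0.034, Txnrd1 -0.0072, Txnrd2 -0.0028 and Dio1 -0.032 with the length slope, and Gpx1 -0.071, Gpx4 -0.019, Selenop -0.041 and Dio1 -0.0021 without both libraries that stood apart. In treated minus young control they were Gpx1 -0.13, Gpx4 -0.14, Txnrd2 -0.16 and Selenof -0.010 with median-of-ratios scaling, Txnrd2 -0.10 with quantile normalization, Gpx1 -0.017, Gpx4 -0.027 and Txnrd2 -0.045 with the reduced total, Gpx1 -0.16, Selenop -0.13 and Selenos -0.026 with the length slope, and Txnrd2 -0.028 without both libraries. In aged/doxo minus young control they were Selenow 0.0047 with median-of-ratios scaling and 0.017 with quantile normalization, Gpx1 0.12, Selenop 0.34, Txnrd1 0.072, Txnrd2 -0.092, Selenof 0.044, Selenos 0.16 and Sephs2 0.069 with quality weights, Txnrd1 0.10 and Sephs2 0.060 with the length slope, and Gpx1 0.090, Selenop 0.23, Txnrd2 -0.084 and Selenof 0.053 without both libraries.

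Leaving out 1 library at a time gave, in treated minus aged/doxo, Gpx1 -0.071 to 0.62, Gpx4 -0.019 to 0.14, Selenop -0.041 to 1.10, Dio1 -0.0021 to 0.66 and Selenow -0.14 to 0.0062, in treated minus young control Txnrd2 -0.028 to 0.20, and in aged/doxo minus young control Gpx1 -0.46 to 0.23, Gpx4 -0.011 to 0.21, Selenop -0.71 to 0.43, Txnrd1 -0.41 to 0.16, Txnrd2 -0.14 to 0.080, Selenow -0.13 to 0.016, Selenof -0.36 to 0.21, Selenos -0.62 to 0.29, Dio1 -0.89 to -0.22 and Sephs2 -0.38 to 0.13. The replicate block gave 0 of 10 called and left every difference as reported. Libraries with the same number had correlations of -0.58 to 0.39 in their deviations from group means. In this measure 0 libraries correlated best with their own number in both other groups. No pairing by number was seen, which does not exclude one. Group mean levels moved by less than 1 SD in 22 of 30 cases with median-of-ratios scaling and in 27 of 30 with the reduced total.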

Other observations

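Genes that handle thyroid hormone, the substrate of Dio1, were followed through 7 genes, of which 0 passed the adjusted threshold in limma in any comparison. Serpina7, which encodes the thyroxine-binding globulin, was at 17.6, 13.1, 17.5 and 8.78 TPM in treated libraries, between 5.55 and 9.11 TPM in aged/doxo libraries and at 6.70, 5.64, 9.11 and 14.55 TPM in young control libraries. Its treated minus aged/doxo difference was 0.87 (interval 0.24 to 1.495, unadjusted limma p of 0.0108, adjusted p of 0.427), and treated minus young control was 0.64 (interval 0.011 to 1.27, unadjusted limma p of 0.0467, adjusted p of 0.734). These were 0.81 and 0.54 without the pair of libraries that stood apart. In each of these comparisons Serpina7 was the 1 of 7 genes at an unadjusted p under 0.05, against 4.77% and 3.4% of all genes. Thrb, the main hepatic receptor, had a treated minus aged/doxo value of 0.50 (interval -0.097 to 1.10), and 0.26 without the pair.

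Partners of Selenos in degradation at the endoplasmic reticulum were 6 genes, of which 0 passed in limma, adjusted or unadjusted, in any comparison. Vcp, the ATPase that Selenos binds, had a treated minus aged/doxo value of 0.89 (interval -0.20 to 1.97) and Derl1, a membrane channel component, one of 0.41 (interval -0.15 to 0.98). Without the pair these were 0.31 for Vcp and 0.16 for Derl1.

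Markers of other liver cells gave 0 calls in limma in any comparison after adjustment, and their part in the results above was not tested. The 5 erythroid markers summed to 846 to 1777 TPM in treated libraries, 1839 to 2568 TPM in aged/doxo libraries and 836 to 1991 TPM in young control libraries. At an unadjusted p under 0.05, 4 of 5 were lower in treated than in aged/doxo livers (4.77% of all genes passed in either direction) and 4 of 5 were higher in aged/doxo than in young control livers (1.98% of all genes). Without the pair the counts were 1 of 5 and 3 of 5. Treated against aged/doxo gave 2 of 5 without aged/doxo library 2 alone and 0 of 5 with the length slope. The 8 sinusoidal endothelial markers summed to 56.7 to 101 TPM in treated libraries, 29.4 to 67.1 TPM in aged/doxo libraries and 28.6 to 75.5 TPM in young control libraries, with 4 of 8 at an unadjusted p under 0.05 and higher in treated than in aged/doxo livers. This count was 1 of 8 without the pair, 1 of 8 without aged/doxo library 2 alone and 0 of 8 with the length slope. The 8 stellate and smooth muscle markers summed to 62.2 to 75.7 TPM in treated libraries, 49.3 to 114 TPM in aged/doxo libraries and 43.0 to 70.0 TPM in young control libraries, with 1 higher and 3 lower at that level in treated than in aged/doxo livers. The count of 3 lower was the same without the pair, without aged/doxo library 2 alone and with the length slope. In 3 of 8 all treated libraries lay below all aged/doxo libraries (0.358% of all genes). Between aged/doxo and young control livers 3 of 8 were higher at that level (1.98% of all genes), and 1 of 8 without the pair. The 10 Kupffer and macrophage markers summed to 158 to 232 TPM in treated libraries, 62.8 to 399 TPM in aged/doxo libraries and 152 to 265 TPM in young control libraries. Cholangiocyte markers, 5 genes, summed to 25.1 to 37.9 TPM in treated libraries, 31.5 to 52.8 TPM in aged/doxo libraries and 22.2 to 43.9 TPM in young control libraries. Lymphocyte markers, 6 genes, stayed at 2.58 to 4.23 TPM in treated libraries, 3.51 to 7.12 TPM in aged/doxo libraries and 2.08 to 4.62 TPM in young control libraries.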
